A study of Homo sapiens with 6 samples.

Results

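FOXO1, FOXO3 and FOXO4 are forkhead transcription factors, and CCNG2, KLHL24, FBXO32, PIK3IP1, IRS2, BCL6 and GABARAPL1 are genes described as their transcriptional targets. These 10 genes, of 26410 rows in the count table, were taken by gene symbol. They were chosen by their membership of this pathway with earlier results of the same shPHF19 and control libraries in view, so their differences are given as a description and were not tested. All 10 were in the table, and all 10 were among the 13014 genes that passed the filter on low counts. The cells were Kasumi-1, a human acute myeloid leukaemia line with the RUNX1::RUNX1T1 fusion. The group called shPHF19 is 3 libraries of cells given a lentiviral hairpin against PHF19, a Polycomb-like partner of Polycomb repressive complex 2. The other group is 3 control libraries, from cells that received a scrambled hairpin per the protocol, although their treatment label reads WT. The vector against PHF19 also carries a green fluorescent protein and puromycin resistance, and the protocol of both groups gives puromycin at 2 µg/ml, from 48 h after delivery. How many hairpin sequences were used is not stated, and effects of a hairpin on other transcripts cannot be told apart from those of PHF19 loss. The labels do not say whether replicates were separate cultures, so the p-values below rest on differences among the 3 libraries of a group, which may be technical only.

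FOXO proteins activate genes of cell cycle arrest, cell death, stress defence, autophagy and feedback on insulin signalling. Growth factors act through PI3K and the kinase AKT, which phosphorylates FOXO proteins so that 14-3-3 proteins hold them outside the nucleus. In blood, FOXO factors are known for keeping stem cells quiescent, and several of them are regulated mainly at the level of the protein, which RNA counts do not report.

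The libraries held 14229878 to 16615143 counts. PHF19 stood at 37.0 ± 4.04 CPM in shPHF19 cells and at 185 ± 16.1 CPM in control cells (CPM, counts scaled to the library total with TMM factors; SD, n = 3 each). All 8 listed myeloblast genes were detected, whereas the platelet gene PF4 had no count. The summed level of the myeloblast genes was 12668 to 13444 CPM in shPHF19 and 7928 to 8236 CPM in control libraries. MPO made up most of this sum, with a mean of 8394 CPM in shPHF19 and 4278 CPM in control cells. Of the myeloblast genes 4 were called higher, CD34 (log2 fold change 1.22) and MPO (0.97) among them. The 2 called lower were ANPEP (-0.64) and RUNX1T1 (-0.37). The summed level of 8 monocyte genes was 49.4 to 53.2 CPM in shPHF19 and 167 to 176 CPM in control libraries, with 4 of the 5 tested members called lower, and CD14 had 0 to 3 counts in a library. The monocyte sum moved in the same direction as the FOXO genes below and the myeloblast sum in the opposite one, and their part in those differences was not tested. In these bulk libraries, fewer cells that express a gene and less RNA per cell cannot be told apart. Across all 13014 genes tested, 60.2% were called in either direction (edgeR quasi-likelihood test, adjusted p under 0.05), 29.4% as higher and 30.9% as lower in shPHF19 cells. With libraries scaled by their totals only, the calls split into 2590 higher and 5624 lower, against 3820 and 4015 with TMM, and the median log2 fold change of the same genes was -0.24 in place of -0.03.

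Promoter windows were looked up in RefSeq sequence (GRCh38.p14) for the 250 bases before each gene's listed start. Of the 10 genes 9 had an entry. The listed starts differ from the GENCODE starts, used below for gene positions, for all but PIK3IP1. By GENCODE, the windows of GABARAPL1 and BCL6 lie within the gene, and those of CCNG2 and KLHL24 do so in part. The windows of FOXO3 and PIK3IP1 are shown as the ends of the range in G and C content. This content is given since Polycomb-like proteins are known to bind DNA rich in unmethylated CG. The windows ranged widely in base composition, with FOXO3 at 80.4% G and C and PIK3IP1 at 46.8%, against a median of 64.8% over the 9628 tested genes with an entry. The ratio of observed to expected CG was 1.08 for FOXO3 and 0.293 for PIK3IP1, and its median was 0.908 over the 9 genes and 0.82 over the tested genes. By this ratio IRS2 (1.21) and FOXO4 (1.14) stood above FOXO3. FOXO3 (chr6:108559575-108559824, plus strand) holds 42 CG and PIK3IP1 (chr22:31292535-31292784, minus strand) holds 4. CG is in capitals, 5′ to 3′.
FOXO3: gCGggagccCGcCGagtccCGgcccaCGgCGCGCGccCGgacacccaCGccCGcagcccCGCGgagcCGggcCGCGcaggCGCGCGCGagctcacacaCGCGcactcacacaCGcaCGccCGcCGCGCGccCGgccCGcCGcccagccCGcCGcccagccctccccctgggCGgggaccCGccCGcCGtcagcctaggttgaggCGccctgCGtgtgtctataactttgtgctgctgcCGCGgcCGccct
PIK3IP1: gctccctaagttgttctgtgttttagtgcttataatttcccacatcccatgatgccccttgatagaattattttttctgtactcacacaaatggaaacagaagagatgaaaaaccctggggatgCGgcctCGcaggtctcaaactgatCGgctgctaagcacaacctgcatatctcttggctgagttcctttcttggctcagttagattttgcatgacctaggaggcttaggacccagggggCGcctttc

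A pair of FOXO binding cores was searched on both strands of these windows, GTAAACA, the core of the DAF-16 binding element, and CAAAACA, the core of the insulin response sequence. The first was found in 0 of the 9 windows and in 1.95% of those of tested genes (2.98% of all 35116 windows). The second was found in 3 of the 9, those of KLHL24, GABARAPL1 and IRS2, and in 2.66% of those of tested genes (4.3% of all). In these 3 windows it reads as TGTTTTG, on the other strand. Its first base is 32, 160 and 40 bases before the listed start of KLHL24, GABARAPL1 and IRS2. The GENCODE starts are 183635568 for KLHL24 and 10212458 for GABARAPL1. By these the matches of KLHL24 and GABARAPL1 lie within the gene, whereas that of IRS2 lies before either start. A match is a run of letters and not a measured site, and the windows without one say nothing of binding elsewhere. The matches are in capitals with 10 bases to each side, from chr3:183635581-183635607 (plus strand), chr12:10212707-10212733 (plus strand) and chr13:109786607-109786633 (minus strand).
KLHL24: tgacgctcagTGTTTTGgcccggacgg
GABARAPL1: ataactcgaaTGTTTTGatgtttgcag
IRS2: agtcacatgtTGTTTTGctcttcttag

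All 10 genes had a lower level in each shPHF19 library than in any control library. Over all tested genes this held for 32.6%, and since the genes were chosen on this contrast, nothing is read from the count. Their log2 fold changes (shPHF19 over control) ran from -2.23 to -0.34 with a median of -1.36, and 8 of the 10 were at least 2-fold lower. The 7 target genes had a median of -1.80 and the 3 factors one of -1.01. None of the 12 alternatives of scaling, filter, tool, replicate block and left-out library reversed a sign, which is no independent support given how the genes were chosen.

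**Figure D1:**
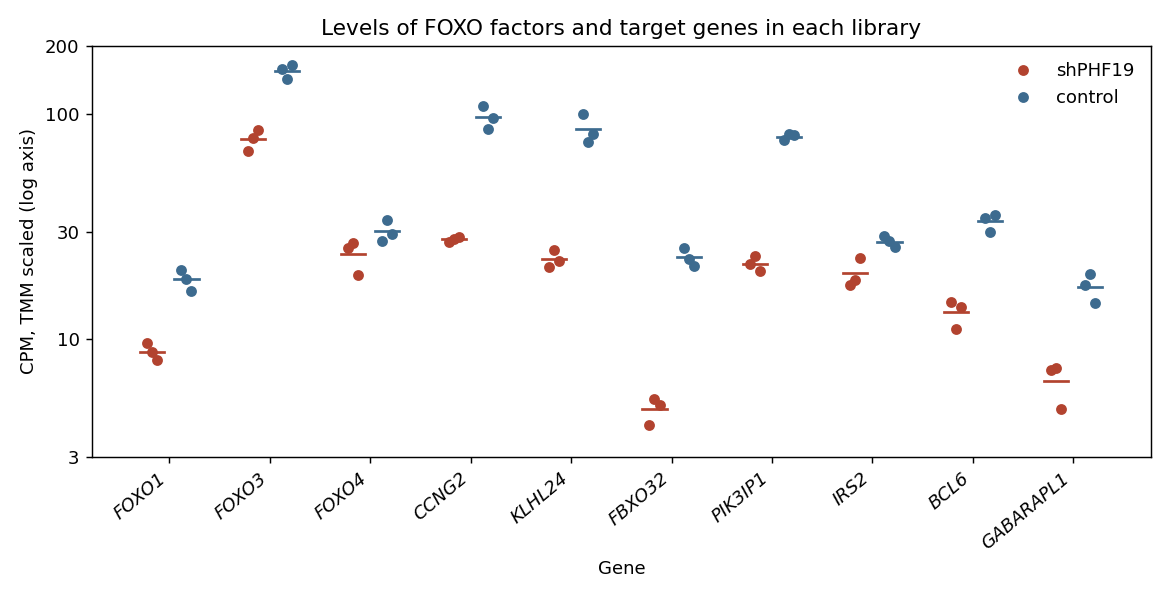
CPM (TMM scaled, log axis) of the 10 genes, with 1 point per library and a line at each group's mean, shPHF19 to the left of control. The groups overlap for none of the genes, and FOXO4 and IRS2 have the narrowest gaps between them.

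Among the factors, FOXO3, the most abundant FOXO transcript in these cells, had 68.1, 78.3 and 84.3 CPM in shPHF19 replicates 1, 2 and 3, against 157, 142 and 165 CPM in control replicates 1, 2 and 3. The 6 values form separate groups, and the mean was 2.01-fold lower in shPHF19 cells (log2 fold change -1.01, SE 0.0917). FOXO1, best known as the insulin-responsive factor of liver and as a regulator of lymphocyte development, had 9.58, 8.75 and 8.05 CPM in shPHF19 libraries, against 20.2, 18.6 and 16.4 CPM in control libraries. Its difference was of the same size (log2 fold change -1.07, SE 0.158). FOXO4, an X-linked member of the family, had 25.4, 26.6 and 19.2 CPM in shPHF19 libraries, against 27.2, 33.7 and 29.2 CPM in control libraries. Here the groups almost touch, and the log2 fold change of -0.34 (SE 0.129) shrank to -0.20 without shPHF19 replicate 3, the lowest of the 6 libraries.

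FOXO6, the remaining family member and not among the 10, was scarce, with 9, 16 and 1 counts in shPHF19 libraries, against 78, 73 and 64 counts in control libraries. It fell by 2.87 on the log2 scale (SE 0.407; edgeR adjusted p = 4.31e-08), a call kept under all 12 alternatives. Levels per kilobase of exon allow the factors to be compared with each other, as far as the annotated lengths hold. These were 1476 bases for FOXO6 and 7721 bases for FOXO3, and no source used here gives the annotation of the counting. The 4 factors together came to 19.1 ± 1.20 CPM per kilobase in shPHF19 cells and 35.4 ± 0.566 in control cells (SD, n = 3 each). FOXO3 held 52.3 ± 6.76% of that sum in shPHF19 and 56.7 ± 3.38% in control cells, and these ranges overlap. FOXO4 held 32.0 to 41.3% in shPHF19 libraries, against 23.3 to 29.4% in control libraries, so its share was larger in each shPHF19 library although its own level was lower.

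Targets of growth arrest and protein turnover were at least 3-fold lower. CCNG2, an atypical cyclin linked to cell cycle arrest, had 26.9, 27.8 and 28.5 CPM in shPHF19 libraries, against 108, 85.6 and 95.7 CPM in control libraries (log2 fold change -1.80, SE 0.105). Its shPHF19 values lie close to each other, and its control values spread more widely, with replicate 1 highest. KLHL24, an adaptor of a cullin-3 ubiquitin ligase, had 20.9, 24.9 and 22.2 CPM in shPHF19 libraries, against 100, 75.0 and 81.4 CPM in control libraries (log2 fold change -1.91, SE 0.113). Control replicate 1 again stands highest. FBXO32 encodes atrogin-1, the F-box protein known from muscle atrophy. It had 4.16, 5.44 and 5.09 CPM in shPHF19 libraries, against 25.3, 22.7 and 21.0 CPM in control libraries, a mean 4.70-fold lower (log2 fold change -2.23, SE 0.167). This was the lowest fold change of the 10.

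Both genes that feed back on PI3K signalling were lower, by unequal amounts. PIK3IP1, a membrane protein that restrains PI3K, had 21.5, 23.3 and 20.1 CPM in shPHF19 libraries, against 76.2, 81.0 and 80.1 CPM in control libraries, with little spread within either group (log2 fold change -1.87, SE 0.107). IRS2, the docking protein that carries signals from the insulin and IGF1 receptors to PI3K, had 17.4, 18.3 and 22.9 CPM in shPHF19 libraries, against 28.6, 27.1 and 25.5 CPM in control libraries. The closest libraries of the groups differ by little, and the log2 fold change was -0.47 (SE 0.131). IRS1, its relative, had too few counts to be tested.

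BCL6, a zinc finger repressor of germinal centre B cells that also acts in leukaemia, had 14.6, 11.1 and 13.8 CPM in shPHF19 libraries, against 34.6, 29.9 and 35.5 CPM in control libraries (log2 fold change -1.34, SE 0.136). GABARAPL1, an ATG8 protein that is attached to autophagosome membranes, had 7.28, 7.45 and 4.89 CPM in shPHF19 libraries, against 17.3, 19.4 and 14.4 CPM in control libraries (log2 fold change -1.38, SE 0.176). Both groups were clearly apart for each gene, and the lowest value of GABARAPL1 was in replicate 3 of either group.

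**Figure D2:**
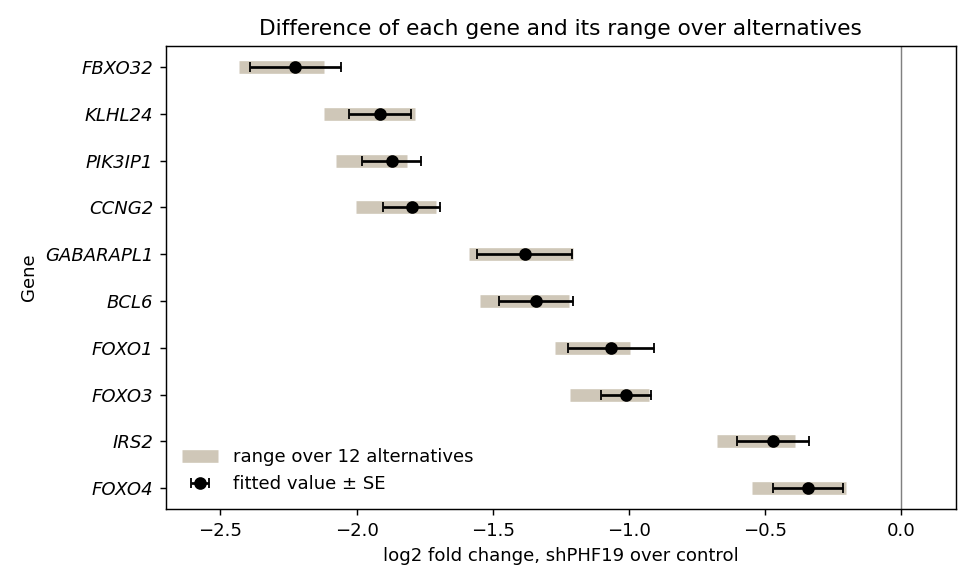
Fitted log2 fold change, shPHF19 over control, with its SE (points and bars) and the range over 12 alternatives (broad bands). All bands lie below 0, from FBXO32 at -2.43 to -2.12 up to FOXO4 at -0.55 to -0.20, and library totals gave the lowest value of each gene.

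Ordered by level per kilobase, PIK3IP1 led in control cells with 28.8 ± 0.933 CPM per kilobase, ahead of FOXO3 (20.1 ± 1.51), CCNG2 (15.3 ± 1.80) and KLHL24 (10.7 ± 1.64; SD, n = 3 each). In shPHF19 cells FOXO3 led with 10.0 ± 1.06 CPM per kilobase, ahead of PIK3IP1 (7.86 ± 0.576), FOXO4 (7.19 ± 1.20) and CCNG2 (4.41 ± 0.124). PIK3IP1 and FOXO4 overlap in shPHF19 cells, as do BCL6, KLHL24, IRS2, GABARAPL1 and FOXO1 from neighbour to neighbour. In control cells KLHL24 overlaps FOXO4, FOXO4 overlaps BCL6, and FBXO32, IRS2 and FOXO1 share the bottom of the order at 3.41, 3.33 and 3.21 CPM per kilobase. In shPHF19 cells FBXO32 alone was lowest, at 0.726 ± 0.0985.

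The genes are spread over the genome (GRCh38, GENCODE 29), although FOXO1 at 40469953 to 40666597 and IRS2 at 109752698 to 109786568 are both on chromosome 13, and KLHL24 and BCL6 are both on chromosome 3. Near-identical copies and overlapping genes held few counts. FOXO3B, a copy of FOXO3, had 2 to 7 counts in a library and GABARAPL3, a copy of GABARAPL1, had 0 to 3. PIK3IP1-AS1, on the strand opposite PIK3IP1, had 16 counts over the shPHF19 libraries and 12 over the control libraries, and LINC00598, within the span of FOXO1, had 3 in either group. Overlapping transcripts that have no row in the count table are annotated on the opposite strand of FOXO1, FOXO3, CCNG2, BCL6, GABARAPL1 and IRS2, and no source used here gives the strand setting of the counting. The authors' deposited table holds 9 of the 10 genes, all but FOXO4, and its log2 fold changes differ from those above by at most 0.0728.

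Other genes described as raised by FOXO factors, a list of 46 without the 10, were more often lower than tested genes in general. Of 35 tested, 21 fell, 4 rose and 10 did not pass, which is 60% lower and 11.4% higher, against 30.9% and 29.4% of all genes tested. Their median log2 fold change was -0.54, against -0.03 for all genes, and no set test was made. This list and those below were drawn up with earlier results of these data known, so their shares and adjusted p-values give no independent support. Under every one of the 12 alternatives 17 of the falls and 2 of the rises kept their call. BTG1, an antiproliferative factor, fell to 63.7 ± 8.22 CPM in shPHF19 cells, against 236 ± 13.3 CPM in control cells (log2 fold change -1.89, edgeR adjusted p = 1.27e-22). TSC22D3, the glucocorticoid-induced leucine zipper protein, fell to 222 ± 7.39 CPM, against 648 ± 23.9 CPM in control cells (log2 fold change -1.54, edgeR adjusted p = 2.04e-21). CDKN1A, the cyclin-dependent kinase inhibitor p21, fell by 1.96 on the log2 scale and TXNIP, an inhibitor of thioredoxin and glucose uptake, by 1.38 (edgeR adjusted p = 4.97e-20 and 5.69e-20). SESN2, which restrains mTORC1, fell by 1.77 on the log2 scale (edgeR adjusted p = 2.12e-19).

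Among the 4 that rose, 3 named after their values were seen were the autophagy kinase gene ULK1 (log2 fold change 1.01), the mitochondrial peroxidase gene PRDX3 (0.59) and SOD2 (0.31), which encodes mitochondrial superoxide dismutase. SOD2 was not called with library totals (0.11), with upper-quartile factors (0.21) or without control replicate 2 (0.26), and its adjusted p ran from 0.00762 to 0.408 over the edgeR and DESeq2 alternatives. Not all genes at the centre of FOXO biology passed the test, and those in the next sentences were also named after their values were seen. CDKN1B, the inhibitor p27, had 70.3 ± 2.15 CPM in shPHF19 and 75.1 ± 6.21 CPM in control cells (log2 fold change -0.09, SE 0.0946, edgeR adjusted p = 0.395), and SESN3 had a change of -0.08 on the log2 scale (SE 0.0953, edgeR adjusted p = 0.453). BCL2L11, the death gene BIM, fell by 0.43 (edgeR adjusted p = 0.00151). Several liver and muscle targets, such as TRIM63, PCK1, IGFBP1 and PDK4, had at most 1 count in a library. In a division made after the values were seen, the 7 listed targets that p53 also raises (CDKN1A, GADD45A, BBC3, PMAIP1, SESN1, SESN2 and TP53INP1) all fell. Of the other 28 tested, 14 fell and 4 rose, with a median of -0.24. Over all genes tested 30.9% were called lower and 29.4% higher, with a median of -0.03. The division gives no independent support, since it was made after these values were seen.

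**Figure D3:**
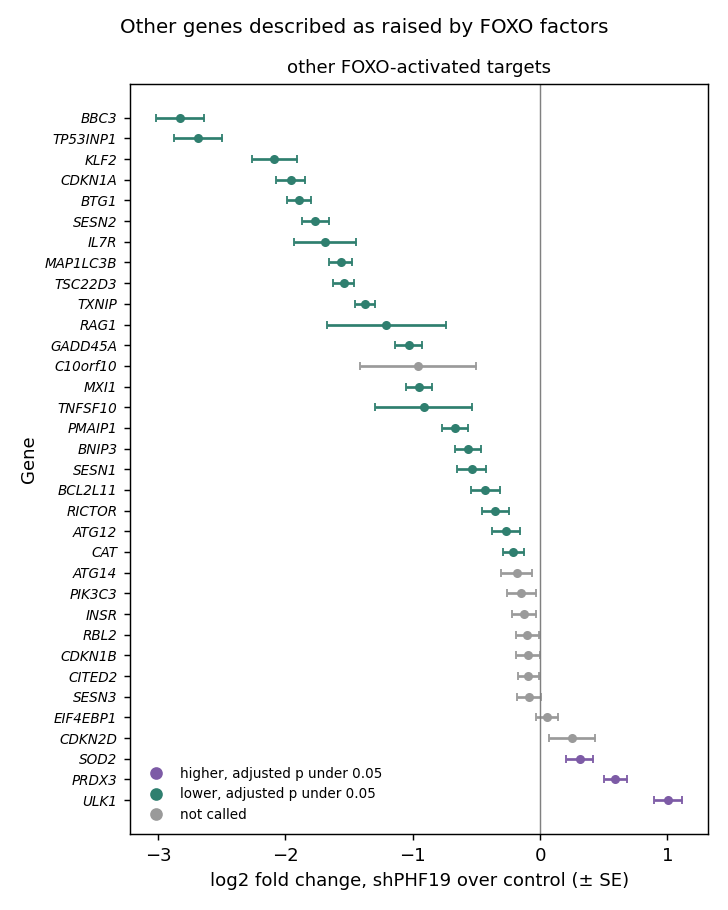
Log2 fold change (shPHF19 over control, with SE) of 34 tested genes on the list of other FOXO-activated targets, coloured by their call. BBC3 lies lowest at -2.83 and ULK1 highest at 1.01, with 21 plotted genes called lower and 3 called higher.

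Genes described as lowered when FOXO factors are active numbered 4. Of these 3 rose and 1 fell, where 29.4% of all genes tested were called higher and 30.9% lower. All 4 were called, against 60.2% of all genes, and a list of 4 is too short to read a share from. CCND1, which encodes cyclin D1, rose to 131 ± 7.07 CPM in shPHF19 cells, against 60.5 ± 2.98 CPM in control cells (log2 fold change 1.11, edgeR adjusted p = 6.86e-15). FOXM1, a forkhead factor of mitotic genes, rose by 0.72 (edgeR adjusted p = 3.87e-09). MYC rose to 751 ± 16.0 CPM, against 589 ± 15.7 CPM in control cells (log2 fold change 0.35, edgeR adjusted p = 0.000142), but was not called with library totals (0.14, edgeR adjusted p = 0.0852, the highest of its alternatives, from 2.49e-08). CCND2, which encodes cyclin D2, fell by 0.32 (edgeR adjusted p = 0.003).

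Upstream, genes of the PI3K and AKT pathway were called in both directions, at a total share near that of all genes. Of 25 listed genes 23 were tested, 9 rose (39.1%), 4 fell (17.4%) and 10 did not pass, against 29.4% higher and 30.9% lower over all genes tested. That is 56.5% called, against 60.2% of all genes, and the median log2 fold change was 0.08. AKT1, the main kinase that inhibits FOXO proteins, rose to 230 ± 27.1 CPM in shPHF19 cells, against 110 ± 5.92 CPM in control cells (log2 fold change 1.07, edgeR adjusted p = 1.34e-14). PIK3CD and PIK3CG, the catalytic subunits typical of blood cells, rose by 0.68 and 0.55 (edgeR adjusted p = 7.18e-09 and 3.89e-07). The catalytic subunits PIK3CB and PIK3CA fell by 0.43 and 0.30 (edgeR adjusted p = 3.24e-05 and 0.0374). PIK3CB kept its call under all 12 alternatives, whereas PIK3CA lost it under 6. Within mTORC2, the complex that also phosphorylates AKT, the kinase MTOR (0.59) and the subunit MAPKAP1 (0.61) rose (edgeR adjusted p = 1.39e-07 and 1.35e-08). Its defining subunit RICTOR fell by 0.35 (edgeR adjusted p = 0.00316), and the subunit MLST8 rose by 0.56 (edgeR adjusted p = 6.08e-06). SGK1, an AKT-related kinase that also phosphorylates FOXO3, went the other way, with 11.2 ± 2.40 CPM in shPHF19 cells and 41.7 ± 6.11 CPM in control cells (log2 fold change -1.89, edgeR adjusted p = 4.26e-16). With library totals 7 genes of this list were called higher and 7 lower.

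Proteins that bind or modify FOXO moved in both directions. Of 26 tested, 7 rose (26.9%), 10 fell (38.5%) and 9 did not pass, with a median of -0.02. The share called, 65.4%, lies near the 60.2% of all genes, and with library totals 4 were called higher and 14 lower. PRMT1, an arginine methyltransferase that blocks AKT phosphorylation of FOXO1, rose to 363 ± 32.0 CPM in shPHF19 cells, against 157 ± 7.99 CPM in control cells (log2 fold change 1.21, edgeR adjusted p = 4.63e-17). SKP2, a ubiquitin ligase subunit that targets FOXO1 for degradation, rose by 1.18 (edgeR adjusted p = 1.23e-14). The 14-3-3 genes differed among themselves. YWHAE rose by 0.92 and YWHAG by 0.86 (edgeR adjusted p = 1.17e-13 and 3.75e-13), and YWHAB rose by 0.31 (edgeR adjusted p = 0.000874) but was not called with library totals. YWHAZ fell by 0.38 (edgeR adjusted p = 7.05e-05), and YWHAH (0.10) and YWHAQ (0.01) did not pass. SIRT1, a deacetylase of FOXO proteins, fell to 27.9 ± 4.69 CPM in shPHF19 cells, against 69.8 ± 6.45 CPM in control cells (log2 fold change -1.32, edgeR adjusted p = 4.33e-14). TRIB2, a pseudokinase described as a repressor of FOXO3, fell by 2.07 (edgeR adjusted p = 2.72e-14).

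**Figure D4:**
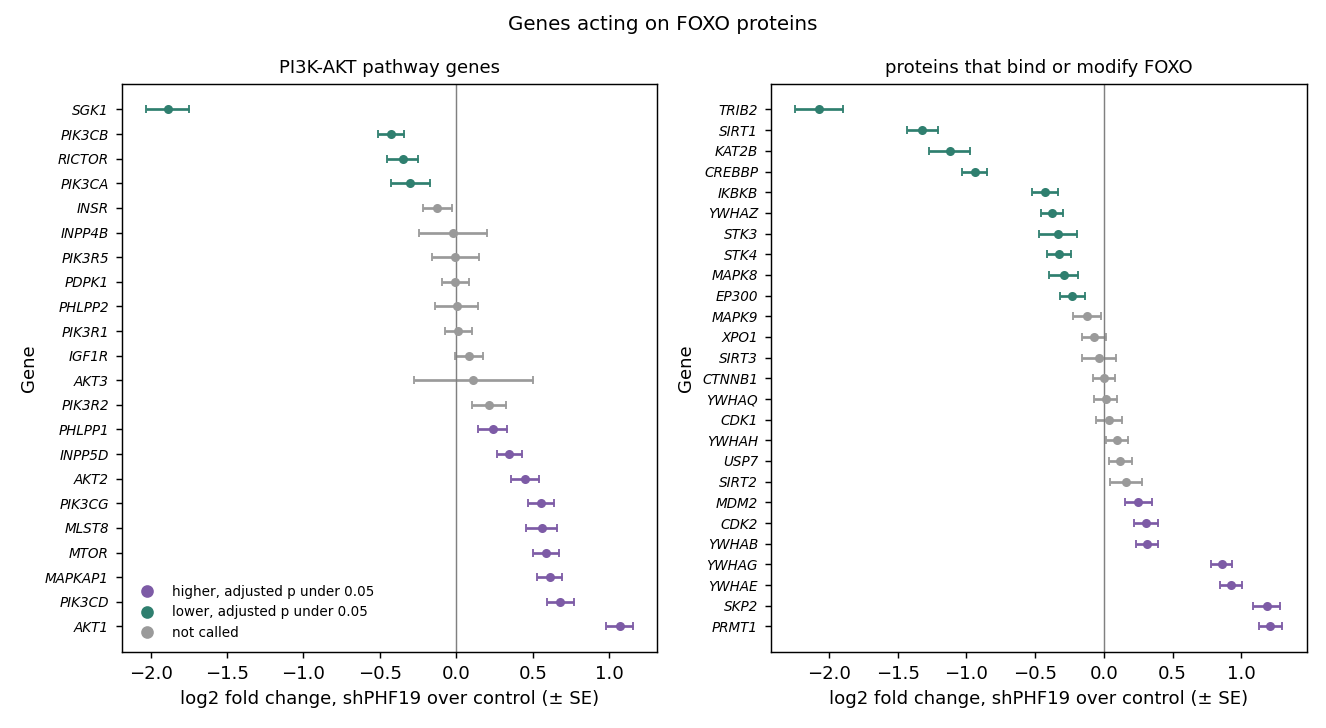
Log2 fold change (shPHF19 over control, with SE) of 22 tested PI3K and AKT pathway genes (left) and 26 tested genes of proteins that bind or modify FOXO (right), coloured by their call. AKT1 at 1.07 and SGK1 at -1.89 mark the ends on the left, and PRMT1 at 1.21 and TRIB2 at -2.07 on the right.

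Close relatives of the targets differed from them in places. In the ATG8 family, GABARAP had 105 ± 9.59 CPM in shPHF19 and 101 ± 13.2 CPM in control cells (log2 fold change 0.05, SE 0.0943) and GABARAPL2 had 53.4 ± 3.66 and 54.1 ± 3.74 CPM in these groups (-0.02, SE 0.101). MAP1LC3B, also on the list of FOXO-activated targets, fell to 56.0 ± 3.28 CPM in shPHF19 cells, against 166 ± 3.07 CPM in control cells (log2 fold change -1.56, edgeR adjusted p = 3.74e-20). Of 13 tested genes of this family and its conjugation enzymes 3 rose, 4 fell and 6 did not pass, which is 53.8% called, near the 60.2% of all genes. None of the 3 rises, ATG4B, ATG4D and ATG16L1 (0.32, 0.30 and 0.34), was called without control replicate 3, and 1 was called without shPHF19 replicate 2 or with the replicate block. CCNG1, the relative of CCNG2, fell by 0.68 and CCNI, a more distant one, stood at -0.07 and did not pass (edgeR adjusted p = 1.05e-08 and 0.458). The partners of FBXO32 in its ubiquitin ligase, SKP1 (0.89), CUL1 (0.41) and RBX1 (0.56), all rose, and CUL3, the partner of KLHL24, had a log2 fold change of -0.01. FBXO25, the F-box protein most like FBXO32, fell by 0.82, as did KLHL6 by 0.57. Of these 8 tested relatives and partners 3 rose, 3 fell and 2 did not pass, and these 6 calls held under all 12 alternatives. That is 37.5% in each direction, against 29.4% higher and 30.9% lower over all genes.

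Of 8 tested partners and relatives of BCL6 3 rose, 2 fell and 3 did not pass, and the 62.5% called lies near the 60.2% of all genes. NCOR1 fell to 33.2 ± 4.40 CPM in shPHF19 cells, against 66.1 ± 4.59 CPM in control cells (log2 fold change -0.99, edgeR adjusted p = 5.54e-11), and BCOR fell by 0.49 (edgeR adjusted p = 1.29e-06). The histone deacetylase gene HDAC3 rose by 0.35, CTBP1 by 0.44 and PATZ1 by 0.32, and of these CTBP1 alone was called with library totals. PRDM1, which BCL6 represses in B cells, had 5.41 ± 0.515 CPM in shPHF19 and 4.74 ± 0.459 CPM in control cells (log2 fold change 0.19, SE 0.224, edgeR adjusted p = 0.471).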

How the data were processed

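Counts per gene came from 6 RNA-seq libraries of total RNA (KAPA Hyper Prep kit), grouped by sample title. The authors deposited whole-number counts per gene symbol, not normalized. The submitters' processing notes name HTSeq 0.11.2, HISAT2 2.1.0 and the build hg38, and no source used here gives the annotation or strand setting. The authors also deposited a table of mean normalized signal, log2 fold changes with errors, p-values and adjusted p-values, which is filtered and was set beside the fitted log2 fold changes of the 10 genes only.

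The test was that of edgeR 4.0.16, run under R 4.3.3 (filterByExpr, TMM, robust quasi-likelihood F test on group), with Benjamini-Hochberg adjustment over all 13014 genes and a threshold of 0.05. CPM were computed here on TMM-scaled totals. The SE is the log2 fold change divided by the square root of F. Levels per kilobase used the union of exons of coding transcripts in GENCODE 29.

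The members and all lists were chosen with earlier results of these data known. The rule for naming genes took up to 6 of each list with the smallest adjusted p, or any gene of lists of at most 16. Genes of the longer lists named beyond this rule (further FOXO-activated targets, 14-3-3 genes, mTORC2 subunits, PIK3CA, PIK3CB and IRS1) were chosen after their values were seen. Alternatives were DESeq2 1.42.0, edgeR with other scalings (RLE, upper quartile, library totals), no filter, a replicate block and each library left out. At these depths a count of 0 allows up to 3 counts, or 0.177 to 0.223 CPM, for counting error only. Chi-square per degree of freedom between replicate pairs was 4.63 to 11.7, above sampling noise, and every library was kept as its own replicate. The division of targets by p53 was added after the data were seen. A few listed genes are counted in their lists but are not reported here by name.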

Additional observations from a re-analysis of the deposited data

How the results depend on the processing

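Over 12 alternatives the 10 genes gave 120 values, of which 0 reversed, 111 moved by less than the spread between replicates and 9 moved by more, 8 of them with library totals and 1, PIK3IP1 (-1.97), with upper-quartile factors. With library totals the counts of calls that moved by over 1.5 times were 7 lower for PI3K and AKT genes, 4 higher for proteins that bind or modify FOXO, 2 higher for other FOXO-activated targets, 0 higher for the ATG8 family and 1 higher for BCL6 partners. The ATG8 family also had 0 higher with upper-quartile factors, 1 with the replicate block and 0 to 3 when each library was left out; its 3 rises have adjusted p of 0.0127, 0.036 and 0.0469, close to the threshold. Between the shPHF19 and control libraries of the same replicate number, deviations from the group means correlated at -0.23, -0.01 and -0.06 for numbers 1, 2 and 3. With 3 libraries in a group, these values cannot settle whether libraries were handled in pairs. The replicate block gave 3555 genes higher and 3752 lower. DESeq2 gave 3786 and 3721. Low counts limit the precision for scarce genes such as FOXO6, and the 11 listed FOXO-activated targets that were not tested had too few counts to be compared.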

Other observations

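Genes whose profile over the 6 libraries lay closest to that of a factor were sought by the root-mean-square distance of centred log2 CPM. The candidates were 8119 genes averaging 10 CPM or more that also passed a filter on names. It left out antisense, clone-based and other provisional names, and every symbol ending in P and digits. Coding genes such as PIK3IP1 and BNIP3 were dropped by it and could not be returned. For FOXO3 these were ALDH1L2 (distance 0.0281), ANTXR2 (0.0327) and IL6ST (0.0408), with log2 fold changes of -1.05, -1.03 and -0.95. For FOXO1 they were MYRF (0.0663), GADD45A (0.0671) and EPB41L4A (0.0701), of which GADD45A, a growth arrest gene, is also on the list of FOXO-activated targets. For FOXO4 they were ADAMTSL2 (0.0477), SMARCD3 (0.0493) and PPP1R35 (0.0646). With 6 libraries in 2 groups, such a distance mostly reflects the difference between the groups.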
